A study of Homo sapiens with 9 samples.

Results

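The 9 genes described here encode the main enzymes and partner proteins that make mature microRNAs and load them onto Argonaute: DROSHA, DGCR8, XPO5, DICER1, TARBP2, PRKRA, AGO1, AGO2 and AGO3. They were chosen by name, as the rows with these symbols, and all 9 are present among the 25540 gene symbols of the expression table. RNA was sequenced from CAL-1, a cell line grown from a human BPDCN, that is, blastic plasmacytoid dendritic cell neoplasm, an acute leukemia whose cells resemble plasmacytoid dendritic cells. There were 3 groups of 3 libraries: KHSRPi#1 and KHSRPi#2, in which KHSRP was repressed by CRISPR interference, and NTC, the controls, which the labels call wild type. CRISPR interference lowers transcription of a gene without cutting it. What #1 and #2 stand for, whether the cells were pools or clones, and whether replicates were grown apart are not stated in the labels. The p-values therefore reflect variation among these libraries alone, which could be technical.

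MicroRNAs begin as hairpins within long nuclear transcripts. The nuclease Drosha and its partner DGCR8, together called the Microprocessor, cut the hairpin out. Exportin-5, encoded by XPO5, carries it to the cytoplasm. Dicer, helped by the double-stranded RNA-binding proteins TARBP2 and PRKRA, then trims it to a short duplex, and an Argonaute protein keeps 1 strand as a guide to target mRNAs. KHSRP is an RNA-binding protein known to bind G-rich terminal loops of some microRNA precursors, let-7 among them, and to aid their cutting by Drosha and Dicer. The Microprocessor is also known to cut hairpins in the mRNA of DGCR8 itself, which lowers that mRNA.

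Sequences from RefSeq (GRCh38.p14) show the RNAs that these roles refer to. The precursor of let-7a-1, encoded at chr9:94175957-94176036 on the plus strand, is given as an example of the precursors that KHSRP is known to bind. It has 2 runs of at least 3 G, printed in capitals, in the 29 bases between its mature microRNA sequences:
hsa-let-7a-1 hairpin: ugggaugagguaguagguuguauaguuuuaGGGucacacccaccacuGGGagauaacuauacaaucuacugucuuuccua
The mature microRNAs of the hairpins in DGCR8 are given because cutting there destroys the DGCR8 mRNA, with the seed (bases 2 to 8, the part that pairs with targets) in capitals. The first, at chr22:20085797-20085818, lies in the part of exon 2 that is 5′ untranslated, and the other two, at chr22:20086072-20086093 and chr22:20086112-20086129, in the coding part of exon 2, all on the plus strand:
hsa-miR-3618: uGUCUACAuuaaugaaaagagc
hsa-miR-1306-5p: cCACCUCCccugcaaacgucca
hsa-miR-1306-3p: aCGUUGGCucugguggug
A pair of microRNAs from DLEU2, a host transcript described further on, come from chr13:50049167-50049188 and chr13:50049027-50049048 on the minus strand and share the seed AGCAGCA, in capitals:
hsa-miR-15a-5p: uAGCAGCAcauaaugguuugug
hsa-miR-16-5p: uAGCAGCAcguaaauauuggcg
MicroRNAs themselves were not measured in these libraries. The values that follow are levels of the genes' own transcripts.

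Levels are in TPM, a unit that divides reads by transcript length and scales every library to the same sum, so genes can be compared within a library. The number of reads per library is unknown, because TPM keeps no totals. KHSRP averaged 35.2 ± 0.951 TPM in the 6 knockdown libraries and 237 ± 19.1 TPM in the 3 NTC libraries (SD), 14.8% of the control level. Of 13 plasmacytoid dendritic cell markers 11 were at or above 1 TPM in every library, while IL3RA, a defining marker, was listed at 0 in all 9. Whether IL3RA RNA was absent or was not counted was not tested. The summed level of the markers, most of it IRF8, was 3881 to 4411 TPM in knockdown and 3747 to 4249 TPM in NTC libraries. For GZMB, LILRA4 and TCL1A all 6 knockdown libraries lay above the 3 NTC libraries. Of all genes tested below, 4.67% had knockdown beyond NTC in this way, in either direction. Means were 83.5 against 41.2 TPM for GZMB, 1.01 against 0.617 TPM for LILRA4 and 899 against 802 TPM for TCL1A. LILRA4 was low, under the mean of 1 TPM needed for testing, so it is not among the tested genes. These 3 were picked from the 13 markers after their values were seen, and the directions of the others are not given here. The part of such markers in the results below was not tested. Markers of other cells were mostly near 0: 0 of 4 T cell, 0 of 3 B cell, 0 of 3 erythroid and 0 of 3 fibroblast genes reached 1 TPM in every library, with LYZ of the 3 monocyte and NCAM1 of the 3 NK cell genes as the exceptions. The replicate 3 libraries of all 3 groups differed from the other 6 in many genes, as given below.

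All 9 genes were expressed in every library, and all 9 passed the minimum mean of 1 TPM that left 10939 genes for testing. In NTC cells XPO5 was highest, at 90.4 ± 4.91 TPM (SD, n = 3), followed by DROSHA at 78.7 ± 2.87 TPM. These means stood at the 84.5th and 82.2nd percentiles of the tested genes. PRKRA averaged 26.9 TPM, TARBP2 22.2 TPM, AGO2 20.9 TPM, DGCR8 19.2 TPM and DICER1 17.3 TPM. AGO1 at 11.1 TPM and AGO3 at 6.87 TPM were lowest. Over the NTC libraries the ranges of XPO5 and DROSHA, of DROSHA and PRKRA, of DICER1 and AGO1 and of AGO1 and AGO3 did not overlap. Between PRKRA and DICER1 in this order each gene's range overlapped with that of the next. The same 4 pairs stood apart over all 9 libraries.

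The comparison of knockdown with control cells asked whether transcripts of the processing machinery differ once KHSRP is repressed. None of the 9 genes passed the test: limma on log2(TPM + 1), Benjamini-Hochberg adjusted over all tested genes, called 0 of 9 genes for the mean of both knockdown groups minus NTC, against 9 of all genes (0.0823%), and 0 of the 9 had an unadjusted p under 0.05, against 7.93% of all tested genes. Their log2 fold changes ran from -0.09 to 0.16 with standard errors of 0.05 to 0.09, 5 of them positive and 4 negative. Their median was 0.02, as it was over all tested genes. The 95% intervals of all 9 lay between -0.28 and 0.35, that is, between 0.823-fold and 1.27-fold of TPM + 1. That scale understates fold changes in TPM, most of all for low genes such as AGO3. For none of the 9 did all 6 knockdown libraries lie beyond all 3 NTC libraries, which was so for 4.67% of tested genes. In bulk RNA, fewer cells that express a gene and less of its RNA per cell cannot be told apart.

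**Figure D1:**
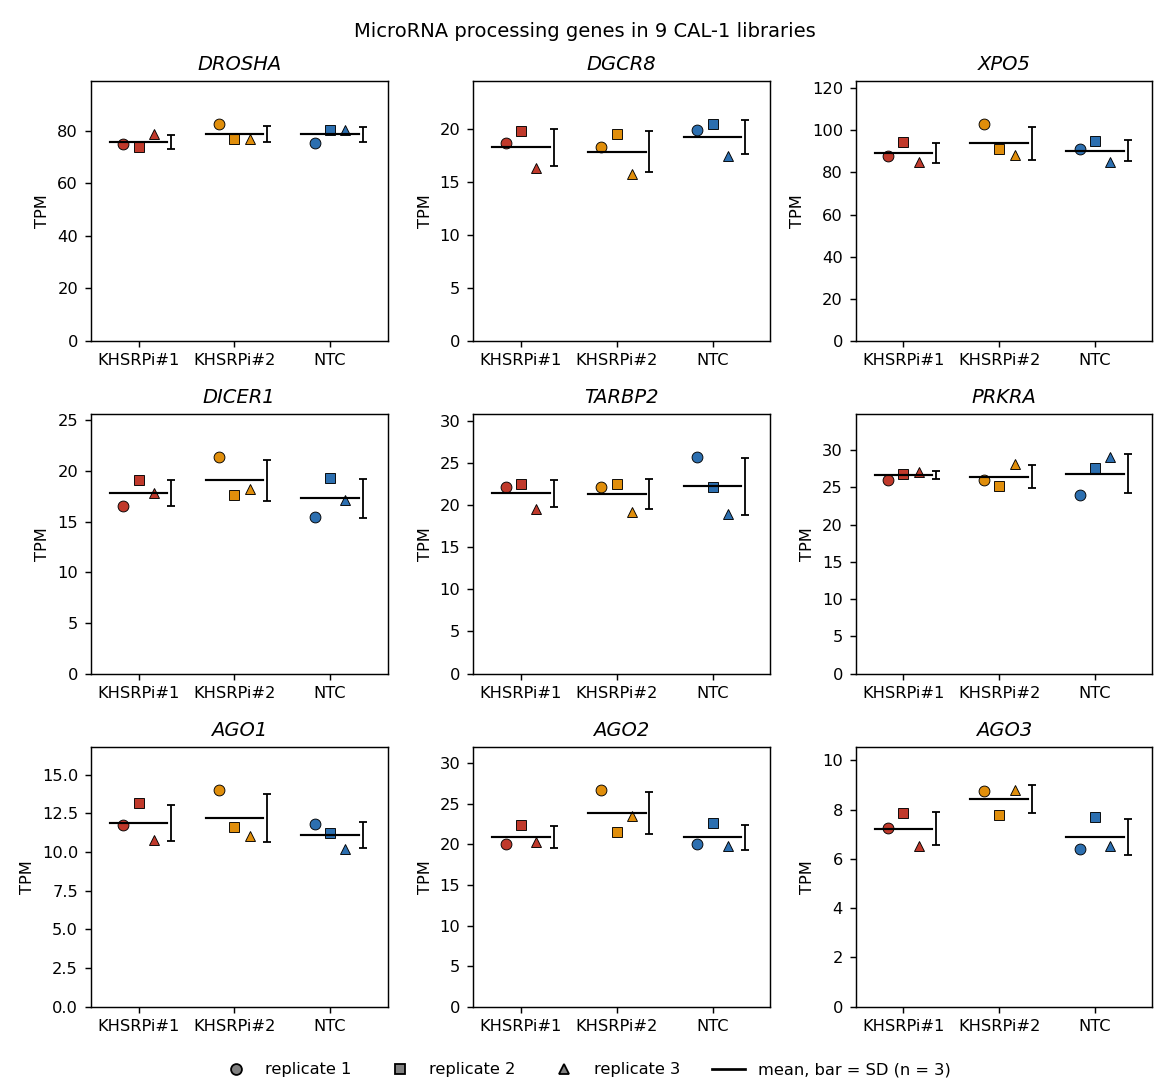
Level in TPM (vertical axes, from 0) of each of the 9 genes in KHSRPi#1, KHSRPi#2 and NTC libraries, with replicates 1, 2 and 3 as circles, squares and triangles, the group mean as a line and the SD as a bar (n = 3). KHSRPi#2 lies above NTC without overlap for AGO3, by 7.79 against 7.72 TPM at the nearest, and KHSRPi#1 overlaps with NTC in all panels. The share of all tested genes apart between KHSRPi#2 and NTC was not counted. The triangles are the lowest points of each group for DGCR8, XPO5, TARBP2 and AGO1.

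Among the nuclear steps, DROSHA, the nuclease that makes the first cut, was the steadiest of the 9. It had 75.0, 73.8 and 78.9 TPM in KHSRPi#1, 82.5, 77.1 and 77.0 TPM in KHSRPi#2, and 75.4, 80.3 and 80.5 TPM in NTC libraries. All 3 groups overlapped, and the highest library was 1.12 times the lowest. The log2 fold change over both knockdown groups was -0.02 ± 0.05 (SE; limma adjusted p = 0.926), with a 95% interval of -0.13 to 0.08.

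DGCR8, the RNA-binding partner of Drosha, had 18.6, 19.8 and 16.3 TPM in KHSRPi#1, 18.3, 19.5 and 15.7 TPM in KHSRPi#2, and 19.9, 20.4 and 17.4 TPM in NTC libraries. Within each group the replicate 3 library was lowest, and the groups overlapped. The log2 fold change was -0.09 ± 0.09 (SE; limma adjusted p = 0.834), with a 95% interval of -0.28 to 0.10. The ratio of DROSHA to DGCR8 was 4.33 ± 0.489 in knockdown and 4.12 ± 0.444 in NTC libraries (SD), a difference within the spread.

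XPO5, the export receptor for cut hairpins, had 88.0, 94.3 and 85.2 TPM in KHSRPi#1, 103, 91.0 and 88.1 TPM in KHSRPi#2, and 91.1, 94.9 and 85.2 TPM in NTC libraries. KHSRPi#2 replicate 1 was the highest library, and the groups overlapped. Knockdown minus NTC gave a log2 fold change of 0.02 ± 0.06 (SE; limma adjusted p = 0.963). It was -0.0019 under median-ratio rescaling of the libraries, and also negative without KHSRPi#1 replicate 2, KHSRPi#2 replicate 1 or NTC replicate 3, at -0.024 at the lowest.

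At the Dicer step, DICER1, the nuclease that trims the exported hairpin, had 16.5, 19.1 and 17.8 TPM in KHSRPi#1, 21.3, 17.7 and 18.2 TPM in KHSRPi#2, and 15.5, 19.3 and 17.1 TPM in NTC libraries. The groups overlapped, and KHSRPi#2 replicate 1 was again the highest library. Its log2 fold change was 0.09 ± 0.08 (SE; limma adjusted p = 0.834), with a 95% interval of -0.10 to 0.28.

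TARBP2, a Dicer partner that binds double-stranded RNA, had 22.1, 22.4 and 19.5 TPM in KHSRPi#1, 22.2, 22.4 and 19.2 TPM in KHSRPi#2, and 25.6, 22.2 and 18.9 TPM in NTC libraries. Both knockdown groups lay within the NTC range, whose highest library was NTC replicate 1 and whose lowest was NTC replicate 3. A log2 fold change of -0.05 ± 0.09 (SE; limma adjusted p = 0.926) resulted, which was 0.05 without NTC replicate 1.

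PRKRA, the other double-stranded RNA-binding partner of Dicer, also known as PACT and as an activator of the kinase PKR, had 26.0, 26.8 and 27.1 TPM in KHSRPi#1, 26.0, 25.1 and 28.1 TPM in KHSRPi#2, and 23.9, 27.6 and 29.04 TPM in NTC libraries. Every knockdown value lay between the lowest and the highest NTC value. Knockdown minus NTC gave a log2 fold change of -0.01 ± 0.07 (SE; limma adjusted p = 0.973). Its sign turned without KHSRPi#2 replicate 2, NTC replicate 2 or NTC replicate 3, with 0.04 at the highest, and in replicates 1 and 2 alone, with 0.016.

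The Argonautes hold the guide strand, and AGO2 is the member known to cut perfectly paired targets. AGO2 had 20.0, 22.4 and 20.2 TPM in KHSRPi#1, 26.7, 21.5 and 23.5 TPM in KHSRPi#2, and 20.1, 22.6 and 19.9 TPM in NTC libraries. KHSRPi#1 and NTC covered nearly the same range, and 2 of the 3 KHSRPi#2 libraries lay above both. The log2 fold change over both knockdown groups was 0.09 ± 0.08 (SE; limma adjusted p = 0.804).

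AGO1, which represses targets mainly without cutting them, had 11.7, 13.1 and 10.8 TPM in KHSRPi#1, 13.97, 11.6 and 11.0 TPM in KHSRPi#2, and 11.8, 11.2 and 10.2 TPM in NTC libraries. The groups overlapped, with the replicate 3 library lowest in each. Its log2 fold change was 0.11 ± 0.09 (SE; limma adjusted p = 0.808).

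AGO3, the least abundant of the 9, had 7.26, 7.88 and 6.54 TPM in KHSRPi#1, 8.74, 7.79 and 8.78 TPM in KHSRPi#2, and 6.40, 7.72 and 6.50 TPM in NTC libraries. All 3 KHSRPi#2 libraries lay above all 3 NTC libraries, by 7.79 against 7.72 TPM at the nearest, while KHSRPi#1 overlapped with NTC. The share of all tested genes that lay apart between these groups was not counted, so this separation is not set apart from it. Over both knockdown groups the log2 fold change of AGO3 was 0.16 ± 0.08 (SE; unadjusted p = 0.0740, limma adjusted p = 0.664), the largest of the 9 in size.

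Taken by group, limma called 0 of 9 genes for KHSRPi#1 minus NTC, against 0.0548% of all tested genes, and 0 of 9 for KHSRPi#2 minus NTC, also against 0.0548%. With an unadjusted p under 0.05 there were 0 of 9 for KHSRPi#1 (5.24% of all tested genes) and 1 of 9 for KHSRPi#2 (6.93%). That gene was AGO3, with a log2 fold change of 0.26 ± 0.10 (SE) for KHSRPi#2 (limma adjusted p = 0.651) and 0.06 ± 0.10 for KHSRPi#1. AGO2 had 0.18 ± 0.09 for KHSRPi#2 (limma adjusted p = 0.735) and 0.00 ± 0.09 for KHSRPi#1. The other 7 genes lay between -0.11 and 0.13 for KHSRPi#2 and between -0.08 and 0.09 for KHSRPi#1. These contrasts share the same NTC libraries.

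**Figure D2:**
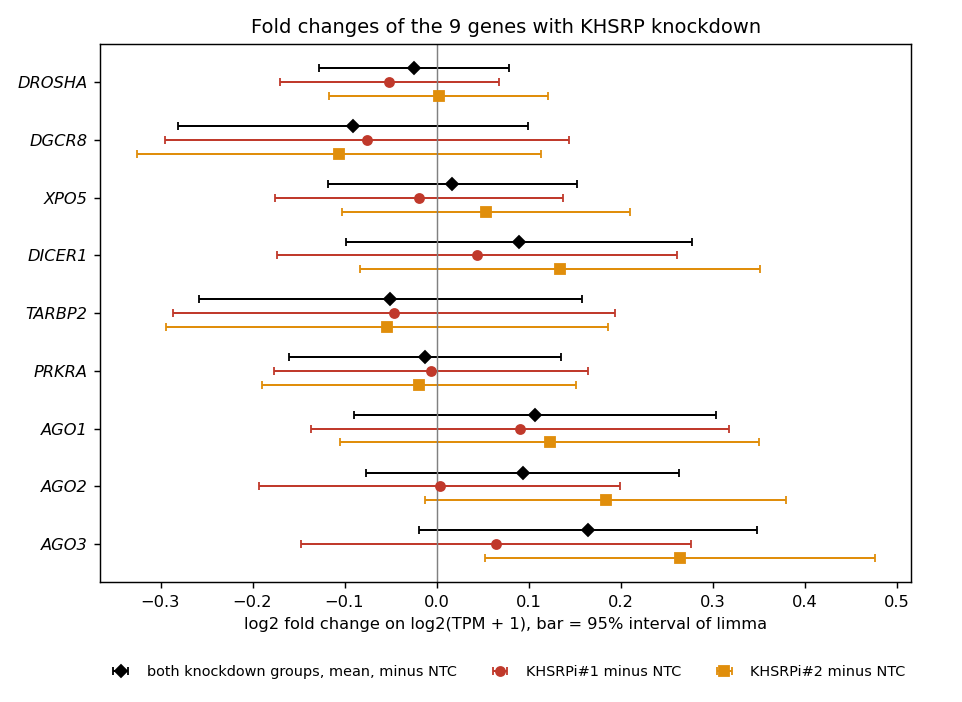
Log2 fold change on log2(TPM + 1) (horizontal axis) of the 9 genes, for the mean of both knockdown groups minus NTC (diamonds), KHSRPi#1 minus NTC (circles) and KHSRPi#2 minus NTC (squares), with 95% intervals from limma as bars. The 9 intervals of the mean all cross 0, and the interval that does not is that of AGO3 in KHSRPi#2, from 0.05 to 0.48.

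The groups were also set against each other. KHSRPi#2 minus KHSRPi#1 gave limma calls for 0 of 9 genes and for 0.0% of all tested genes, with 0 of 9 and 1.05% at an unadjusted p under 0.05. The largest difference was that of AGO3, with a log2 difference of 0.20 and a 95% interval of -0.01 to 0.41, followed by AGO2 with 0.18 and an interval of -0.02 to 0.38. Over the 9 genes the intervals ran from -0.25 at the lowest to 0.41 at the highest.

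With a term for replicate 3 in the fit, limma called 0 of 9 genes for the mean of both knockdown groups minus NTC (1.76% of all tested genes), 0 of 9 for KHSRPi#1 (0.676%), 0 of 9 for KHSRPi#2 (0.804%) and 0 of 9 for KHSRPi#2 minus KHSRPi#1 (0.0%). At an unadjusted p under 0.05 with the term there were 0 of 9 for the mean (17.5% of all tested genes), 0 of 9 for KHSRPi#1 (13.1%), 2 of 9 for KHSRPi#2 (15.7%) and 2 of 9 for KHSRPi#2 minus KHSRPi#1 (3.1%), AGO2 and AGO3 in both. In replicates 1 and 2 alone limma called 0 of 9 for the mean of both groups (0.0823%). Over all fits of these contrasts, alternatives included, the smallest adjusted p of any of the 9 genes was 0.0942, for AGO3 in KHSRPi#2 with the replicate 3 term and without NTC replicate 2. Across the alternatives the log2 fold change over both groups was positive in 29 of 29 fits for DICER1, AGO1, AGO2 and AGO3, and negative in 29 of 29 for DROSHA and DGCR8. These fits reuse the same 9 libraries, and in the fit of all 9 libraries the replicate 3 term leaves the fold change as it was. With 1 library left out the term can shift it. The sign counts are therefore no separate support for a direction. At the smallest size DICER1 had 0.0035 and DROSHA -0.0042.

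The makeup of the Argonaute family was set out with AGO4, the family member that is not one of the 9. AGO4, AGO1 and AGO3 lie in a row on chromosome 1, plus strand, in hg38 coordinates of GENCODE 29: AGO4 at 35808172 to 35857890, AGO1 at 35869808 to 35930528 and AGO3 at 35930718 to 36072500. AGO2 is on chromosome 8, minus strand. AGO2 made up 46.7% ± 1.11 of the summed Argonaute level in knockdown libraries and 47.2% ± 1.18 in NTC libraries (SD). AGO1 made up 25.2% in knockdown and 25.1% in NTC libraries, and AGO3 16.4% in knockdown and 15.5% in NTC libraries. The sum of all 4 was 47.9 ± 4.16 TPM in knockdown and 44.2 ± 2.18 TPM in NTC libraries, with overlapping ranges of 43.6 to 54.7 TPM and 42.8 to 46.7 TPM.

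Some of the 9 genes differed by replicate number. Replicate 3 libraries were compared with those of replicates 1 and 2 in a fit that keeps the groups, because earlier results had shown them apart; the labels give all 9 libraries 1 shared batch and do not say what the replicate number stands for. DGCR8 and TARBP2 were lower in replicate 3, and limma called 2 of 9 genes, both lower, against 30.3% of all tested genes (11.6% lower and 18.7% higher). With 9 genes, 2 calls are too few to set apart from these shares. Their median log2 difference was -0.07, against 0.03 over all tested genes, with 7 negative and 2 positive.

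DGCR8 averaged 16.5 ± 0.853 TPM in the 3 replicate 3 libraries and 19.4 ± 0.812 TPM in the other 6 (SD), a log2 difference of -0.22 ± 0.05 (SE; limma adjusted p = 0.00408). It stayed called with any 1 of the 9 libraries left out, with adjusted p up to 0.0396. TARBP2 averaged 19.2 ± 0.339 TPM in replicate 3 and 22.8 ± 1.39 TPM in the other libraries, a log2 difference of -0.24 ± 0.05 (SE; limma adjusted p = 0.00647). That call was lost without NTC replicate 3 (adjusted p = 0.0742).

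The 3 replicate 3 libraries lay beyond the other 6 for 3 of the 9 genes, DGCR8, TARBP2 and AGO1, each below; of all tested genes 27.5% lay beyond, 11.0% below and 16.5% above. AGO1 averaged 10.7 ± 0.435 TPM in replicate 3 and 12.2 ± 1.06 TPM in the other libraries, a log2 difference of -0.18 ± 0.06 (SE; limma adjusted p = 0.0532). XPO5 had a log2 difference of -0.12 ± 0.04 (limma adjusted p = 0.0611). Both were called under median-ratio rescaling and under quantile normalization, which gave 4 of 9 genes, and AGO1 also with a minimum mean of 5 TPM, which gave 3 of 9. PRKRA went the other way without passing, with a log2 difference of 0.11 ± 0.05 (limma adjusted p = 0.123). The remaining 4 lay between -0.07 and 0.03.

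**Figure D3:**
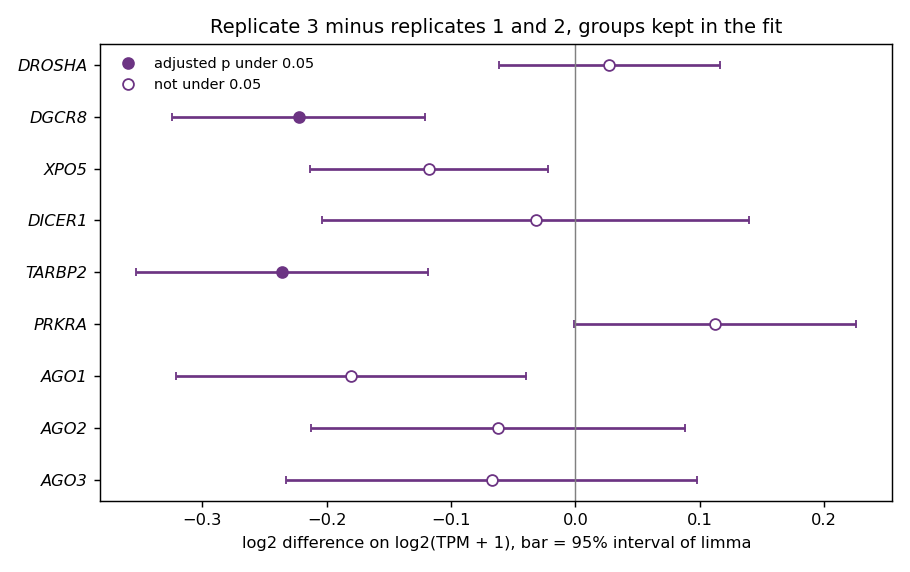
Log2 difference on log2(TPM + 1) (horizontal axis) of replicate 3 minus replicates 1 and 2 for the 9 genes, from a limma fit that keeps the 3 groups, with 95% intervals as bars; filled circles have an adjusted p under 0.05. DGCR8 at -0.22 and TARBP2 at -0.24 are the filled ones.

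Ratios between the genes were set out too, and those with DGCR8 or TARBP2 restate the lower levels of these genes in replicate 3. How often ratios of other gene pairs lay apart was not counted. DROSHA to DGCR8 was 4.62 to 4.89 in replicate 3 libraries and 3.73 to 4.52 in the others. TARBP2 to PRKRA was 0.650 to 0.721 in replicate 3 and 0.803 to 1.07 in the others. XPO5 to DICER1 overlapped, with 4.78 to 4.97 in replicate 3 and 4.83 to 5.89 in the others. AGO4 averaged 6.82 ± 0.280 TPM in replicate 3 and 4.88 ± 0.339 TPM in the other libraries (SD), so its share of the Argonautes was 13.9% to 15.6% in replicate 3 and 9.73% to 10.9% in the others. The log2 difference of AGO4 was 0.41 (limma adjusted p = 0.000807), still called with any 1 of the 9 libraries left out.

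DICER1, TARBP2 and AGO1 had the widest range of log2(TPM + 1) over the 9 libraries, at 0.44, 0.42 and 0.42, and DROSHA the narrowest, at 0.16, against a median of 0.31 over all tested genes. The genes with the most similar profiles were found by the root mean square difference over the 9 libraries, each profile centred on its own mean. For DICER1 they were MBNL1, at 0.0247, and NUFIP2, at 0.0255. For TARBP2 they were NCLN, at 0.0324, and NSUN5, at 0.0335. For AGO1 they were RNF149, at 0.0329, and IQSEC1, at 0.0342. These profiles come from the same libraries, including the 3 of replicate 3.

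Around the 9 genes, 6 lists of other microRNA pathway genes held 48 tested genes. Limma called 0 of 48 for the mean of both knockdown groups minus NTC, against the 0.0823% of all tested genes, and with the replicate 3 term 1 of 48, DLEU2, which was higher, against 1.76%. Of the 48, DLEU2 and DIS3L2 had an unadjusted p under 0.05 in limma without the term, against 7.93% of all tested genes. The list medians were 0.00 for 12 Microprocessor cofactors, 0.00 for 2 export factors, 0.02 for 10 effectors that work with Argonaute, 0.01 for 7 chaperones of Argonaute loading, 0.01 for 9 genes of precursor tailing, trimming and turnover and 0.14 for 8 microRNA host genes, against 0.02 over all tested genes. LIN28A and LIN28B, which block let-7 processing, were listed at 0 in all 9 libraries.

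DLEU2, the long noncoding host transcript of miR-15a and miR-16-1, whose sequences are given above, had 16.04, 17.9 and 11.9 TPM in KHSRPi#1, 18.1, 15.6 and 13.98 TPM in KHSRPi#2, and 10.5, 13.05 and 9.04 TPM in NTC libraries. Of the 6 knockdown libraries 5 lay above all NTC libraries, and KHSRPi#1 replicate 3 lay below NTC replicate 2. DLEU2 had a log2 fold change of 0.48 (limma adjusted p = 0.394 without the replicate 3 term and 0.00925 with it). For the mean of both groups, with the term and 1 library left out, it was called 8 of 9 times, and not without NTC replicate 3 (limma adjusted p = 0.0695). By group it was called 2 of 9 times for KHSRPi#1 and 5 of 9 for KHSRPi#2. Without the term and with 1 library left out, the mean of both groups was called 0 of 9 times. DLEU2 was also not called for that mean in replicates 1 and 2 alone. DLEU2 was also lower in replicate 3 by a log2 difference of -0.36 (limma adjusted p = 0.00472), and a host transcript's level does not give that of its mature microRNAs.

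Genes named from the other lists did not pass with or without the term. DIS3L2, a nuclease known to degrade tailed let-7 precursors, averaged 8.88 ± 0.614 TPM in knockdown and 10.0 ± 0.342 TPM in NTC libraries (SD), a log2 fold change of -0.16 (limma adjusted p = 0.613, and 0.207 with the term). HSP90AA1, a chaperone of Argonaute loading, had a log2 fold change of 0.15 (0.719, and 0.0654 with the term, as limma adjusted p). MIR155HG, the host transcript of miR-155, averaged 13.9 ± 1.18 TPM in knockdown and 12.3 ± 0.572 TPM in NTC libraries, a log2 fold change of 0.16 (limma adjusted p = 0.649). HNRNPA1, which binds some precursors, had a log2 fold change of -0.07, ADAR, which edits double-stranded RNA including some precursors, 0.05, MOV10, a helicase found with Argonaute, -0.12, GEMIN4 -0.09, DNAJA2 -0.04, TSNAX, a subunit of the nuclease C3PO, 0.08, and AGO4 0.05. The export factors XPO1 and RAN had 0.01 and 0.00 on the same log2 scale, and their signs changed with the setting.

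**Figure D4:**
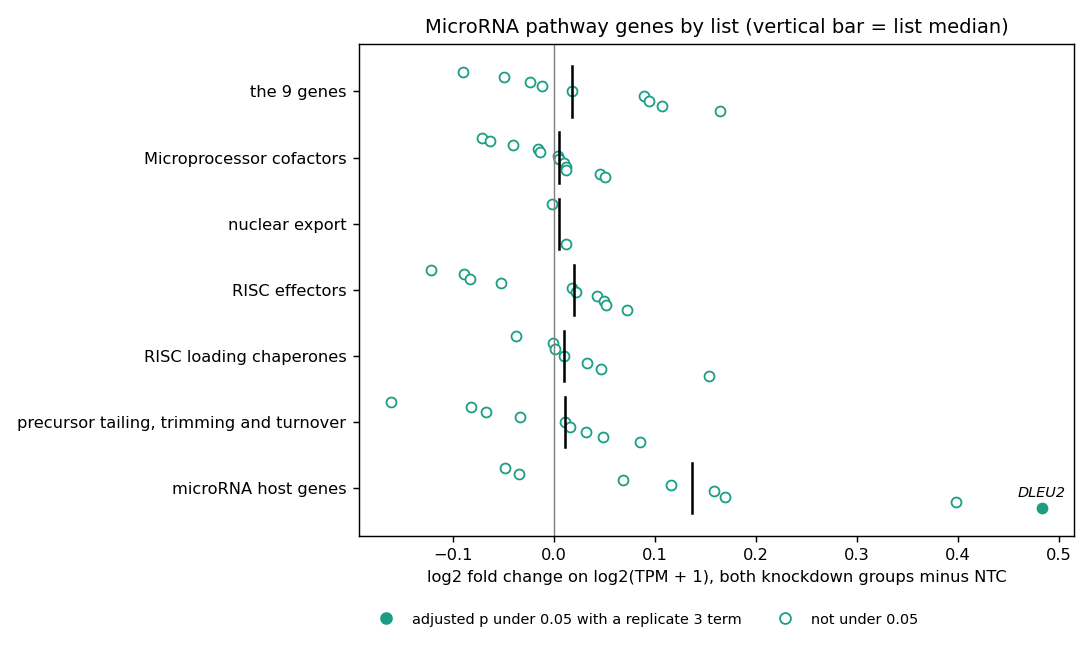
Log2 fold change on log2(TPM + 1) (horizontal axis) for the mean of both knockdown groups minus NTC of the 9 genes (top row) and of 48 other pathway genes by list, 1 circle a gene, with the list median as a vertical bar; a filled circle has an adjusted p under 0.05 in the fit with a replicate 3 term. DLEU2 at 0.48 is the filled one, and the 9 genes lie between -0.09 and 0.16.

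In the limma comparison of replicate 3 with the other libraries, 8 of the 12 Microprocessor cofactors were called lower and 0 higher, among them SRRT, the cap-linked factor ARS2, with a log2 difference of -0.36, and DDX5 with -0.19. Of the 7 loading chaperones 4 were called lower and 0 higher, among them HSPA8 with -0.28. Of the 9 tailing and turnover genes 0 were called lower and 1 was called higher, the uridylyltransferase TUT7, with 0.30. Of the 10 effectors 2 were called lower and 2 higher, MOV10 and AGO4 being the higher ones. Of the 8 host genes 3 were called lower, MIR17HG, MIR181A1HG and DLEU2, and 0 higher. These counts stand against the 11.6% called lower and 18.7% called higher among all tested genes, and what sets the replicate 3 libraries apart was not tested.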

How the data were processed

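TPM values by gene symbol were deposited by the authors as a single table, 1 column per library, each summing to 1000000. Per the submitters' processing notes the build was hg38; strandedness, annotation, counting tool and aligner settings: not given in the sources used here. Groups and replicate numbers came from the sample titles. Genes with a mean of at least 1 TPM (10939) were tested on log2(TPM + 1) with limma 3.58.1 in R 4.3.3 (all 3 groups in 1 fit, intensity trend, two-sided, Benjamini-Hochberg, called under 0.05); fold changes are on that scale, which understates those of low genes. The script was tested on simulated data. Python 3.11.15, numpy 2.4.6, pandas 2.3.3 and matplotlib 3.10.9 made the summaries and figures. Sequences are from RefSeq, GRCh38.p14, and gene positions from GENCODE 29. The 9 genes and the lists were chosen with earlier results of these data known. Named are the 9 genes, KHSRP, AGO4, from each list the called genes or, with fewer than 2 called, the 2 with the smallest p, and the 2 genes most alike for the 3 most variable of the 9. Genes named for replicate 3, LIN28A and LIN28B, and GZMB, LILRA4 and TCL1A among the markers were chosen after their values were seen. Symbols absent from the table (MIRLET7A1HG, MIR223HG and MIR29B2CHG) were not used; TUT4, TUT7 and TENT2 are listed there under older symbols. One item of the lists is not reported here.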

Additional observations from a re-analysis of the deposited data

How the results depend on the processing

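For the 9 genes, 0 calls for knockdown against NTC held under every alternative run: pseudocounts of 0.1 and 5, no filter or a minimum mean of 5 TPM, median-ratio rescaling, quantile normalization, fits of only the groups compared, replicates 1 and 2 alone, a replicate 3 term, a replicate block, and leaving out each library, with and without the term. The term together with each rescaling was added after seeing the data. Deviations of same-numbered libraries from their group means correlated at 0.622 to 0.628 for replicate 3 and at 0.0398 to 0.324 for replicates 1 and 2. The replicate 3 libraries thus deviated together, while pairing by replicates 1 and 2 was not shown. A replicate block called 152 genes in all, 1 of the pathway genes and 0 of the 9.

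Of all genes, 9 were called for the mean of both groups, 3 to 7 without 1 library, 192 with the replicate 3 term, 33 to 202 with the term and without 1 library (33 without NTC replicate 3), 247 with the term and median-ratio rescaling and 260 with the term and quantile normalization. Pathway calls were 0, also without any 1 library, 1 with the term alone or with either rescaling and 0 to 2 with the term and without 1 library: 0 without NTC replicate 3, and 2, DLEU2 and MIR181A1HG, without NTC replicate 2. For replicate 3, 2 of the 9 genes were called, 3 with a minimum mean of 5 TPM, 4 under median-ratio rescaling and 4 under quantile normalization, 1 without NTC replicate 3 and 4 without KHSRPi#2 replicate 2.

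Fold changes near 0 changed sign. That of XPO5 was -0.0019 under median-ratio rescaling, with or without the term, and -0.024 to 0.053 without 1 library. That of XPO1 was -0.0081 under median-ratio rescaling, -0.00066 in replicates 1 and 2 alone, and -0.039 to 0.077 without 1 library. That of PRKRA was 0.016 and that of RAN 0.018 in replicates 1 and 2 alone; without 1 library PRKRA ran from -0.091 to 0.044, RAN from -0.040 to 0.028, TARBP2 from -0.16 to 0.054, AGO4 from -0.050 to 0.18 and TSNAX from -0.0037 to 0.16. The cause was not tested. With unknown read depth and 3 libraries a group, changes within the 95% intervals are not excluded. For the 9 genes and the mean of both knockdown groups their widest bounds were 0.823-fold and 1.27-fold of TPM + 1. The bounds in TPM itself are somewhat wider, and the intervals of each knockdown group alone were wider too.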
